A study of Aspergillus nidulans FGSC A4 with 21 samples.

Results

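Benzo[a]pyrene (BaP) is a polycyclic aromatic hydrocarbon, a molecule of fused aromatic rings formed by incomplete combustion, and the filamentous fungus *Aspergillus nidulans* can take it up and break it down. The genes described here are those listed as differentially expressed (DEGs) after 6 h of exposure: 703 genes, of 2403 listed at any of the 3 sampling times. They were taken whole from the deposited 6 h table, and every one is counted below. BaP-treated cells were hyphae of strain FGSC A4 given 200 μM BaP in dimethyl sulfoxide (DMSO) for 6 h, and controls were hyphae of the same strain given an equal volume of DMSO for 6 h. Both groups were grown for 18 h in minimal medium with 1% glucose, washed, and moved to medium with 0.1% glucose at 37°C together with the treatment, so the drop in glucose was common to both. Each group had 3 libraries of polyadenylated RNA (n = 3 each). The labels number the replicates of a group, but nothing in them says that these were separate cultures, so the p-values measure the spread between these libraries, part of which may be technical. Libraries are called here by the names the table gives them, B16, B17 and B18 for BaP and D19, D20 and D21 for DMSO.

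Values are RPKM (reads per kilobase of transcript per 1e6 reads), and differences are log2 fold changes of BaP over DMSO on log2(RPKM + 1), which understates the change of genes near 1 RPKM. A gene was said to have risen or fallen when that difference was over 1 in size with a Benjamini-Hochberg adjusted p under 0.05 in a limma fit of the 6 libraries. The list holds only genes that passed a selection on these very libraries before deposit, so the adjusted p-values are too small and each call is a description. A gene that is not listed has no value here, at 6 h or later.

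In *A. nidulans*, glucose holds back many catabolic genes through carbon catabolite repression. When glucose runs short, acetate and fatty acids are used through acetyl-coenzyme A (acetyl-CoA) and the glyoxylate cycle, which lets the cell build sugars from units with 2 carbons. Oxidation of aromatic rings in fungi is often started by cytochrome P450 monooxygenases, and histidine kinase phosphorelays that feed the Hog kinase pathway carry osmotic and oxidative stress signals.

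The 6 libraries differed in effective size along with the treatment. Effective sizes were read from the spacing of low RPKM values. They were 9.58 to 11.0 M reads (M, 1e6) for BaP and 11.7 to 13.7 M reads for DMSO. These totals behind the RPKM values need not equal sequencing depth, and the study reports more reads per sample. Every BaP library was the smaller by this measure, so effective size and treatment cannot be told apart. Library B17 was farthest from the controls among the BaP libraries for 556 of the 703 genes (79.1%), and D19 was farthest from the BaP libraries among the controls for 428 (60.9%). Whole reads could be recovered for 668 of the 703 genes. The median of these had 417 reads per library in the group where it was higher. The RPKM of the 703 genes summed to 86304 to 106708 in BaP-treated cells and 36942 to 40940 in controls.

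Most of the 703 genes were higher with BaP. By sign alone, 535 were higher with a median log2 difference of 1.30, and 168 were lower with a median of -0.95. Of all 703, 447 rose (63.6%) and 73 fell (10.4%), together 74.0%. The other 183 missed the fold limit or the threshold in this fit. Of these, 172 had an adjusted p under 0.05 (limma) and missed the fold limit alone. The study describes all its listed genes as already past a fold limit of this same size in its own analysis. A gene that was not called here is therefore not shown to be unchanged. In 698 genes (99.3%) no BaP library overlapped a DMSO library, a share that the selection of the list itself sets. Lack of overlap in a gene named below is therefore description and adds no support to its difference. With 0.1 RPKM added in place of 1, which shrinks low genes less, 527 genes were called higher and 142 lower. Without B17, 399 genes rose and 49 fell, and 417 of the 520 calls were kept in all 6 fits that left out 1 library.

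The largest rise belonged to AN2177, a predicted oxidoreductase on chromosome VII, 3115535 to 3117165. It had 141, 193 and 135 RPKM with BaP, against 14.8, 24.9 and 21.5 RPKM with DMSO. Each BaP library was above each DMSO library, and the log2 difference was 2.89 ± 0.20 (SE; adjusted p = 1.12e-08, limma), a ratio of means of 7.67. AN12206, whose orthologs carry basic amino acids across membranes, had 15.7, 26.4 and 18.0 RPKM with BaP, against 1.46, 2.82 and 2.90 RPKM with DMSO. Its log2 difference was 2.63 ± 0.21, and B17 was the highest library while D19 was the lowest. The other large rises were AN9123 (2.60), AN7960 (2.54) and AN11783 (2.49), which have no assigned function, the predicted oxidoreductase AN5338 (2.42), the predicted transporter AN2822 (2.41), the phosphoketolase gene *phk* (2.37), the predicted monooxygenase AN9002 (2.33) and the phosphotransfer gene *hk-8-3* (2.32), each value in parentheses being the log2 difference. AN11783 lies inside AN5624 on the opposite strand and AN5338 overlaps AN5339. The counting setting for strand is not given in the sources used here, so reads of such partners cannot be told apart.

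On log2(RPKM + 1), the largest falls were smaller than the largest rises. The first was in *pelC*, a putative pectin lyase on chromosome VIII, 1473210 to 1474507, with 4.82, 2.96 and 3.90 RPKM with BaP, against 14.3, 14.9 and 18.999 RPKM with DMSO. The groups were well apart, and the log2 difference was -1.81 ± 0.18 (adjusted p = 1.12e-07, limma), a DMSO level 4.13 times that with BaP. AN5374, of unknown function, had 20.9, 11.2 and 15.5 RPKM with BaP, against 64.3, 46.9 and 52.5 RPKM with DMSO. Its lowest library was B17. It fell by 1.75 on the log2 scale. AN8321 fell to a mean of 1.14 ± 0.214 RPKM with BaP, against 5.84 ± 0.687 RPKM with DMSO (SD, n = 3 each). The transporter gene *furE*, related to the yeast uracil transporter Fur4p, had 2.54, 0.929 and 1.45 RPKM with BaP, against 7.45, 5.08 and 6.15 RPKM with DMSO. With AN8418, whose predicted enzyme domain is linked to pyrimidine breakdown, *furE* lies between positions 421285 and 427209 of chromosome V, and the log2 differences of these genes were -1.48 and -1.60. The remaining members of the largest falls were AN0181 (-1.49), AN4970 (-1.47), AN8404 (-1.46), AN11034 (-1.45) and the cytochrome P450 gene *CYP687A1* (-1.41). On log2(RPKM + 1), no gene fell by more than 2, while 45 rose by more than 2. Genes lower by sign had median levels of 2.88 RPKM with BaP and 6.64 RPKM with DMSO. For genes higher by sign these were 49.7 and 17.2 RPKM. The added 1 RPKM therefore shrinks falls more than rises on the whole.

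**Figure D1:**
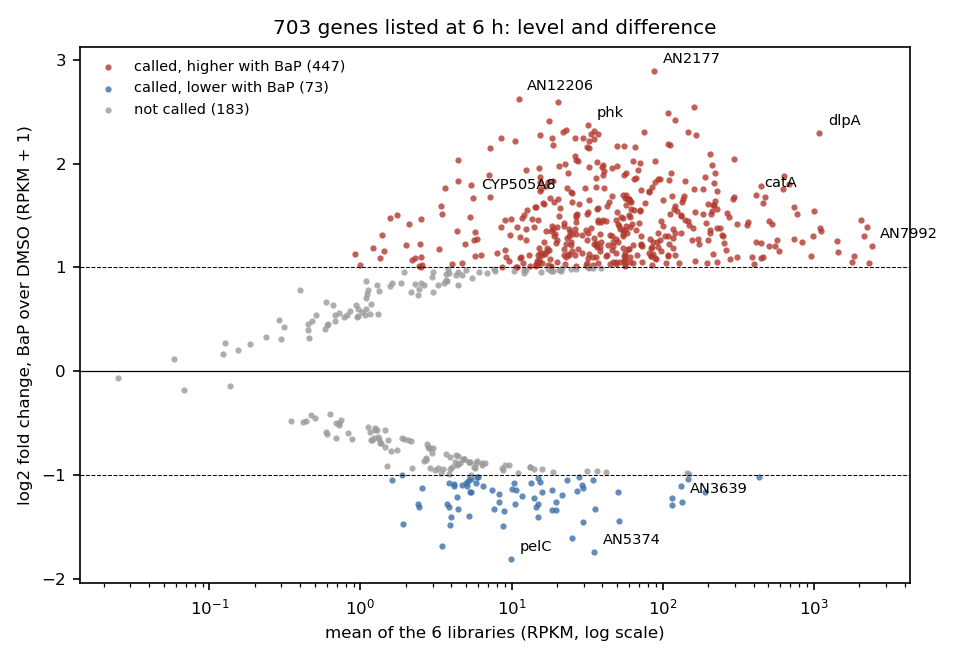
Each point is 1 of the 703 listed genes, with the mean of the 6 libraries in RPKM on a log axis and the log2 fold change of BaP over DMSO on the vertical axis; red points rose, blue points fell, grey points were not called and the dashed lines mark 1 and -1. Rises reach 2.89 (AN2177) while falls reach -1.81 (*pelC*), and the genes at the highest levels, such as AN7992, all lie above 0.

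Function groups were made from words in the deposited gene descriptions. Of 28 groups, 25 had a median above 0, 10 had only members higher with BaP and 2 had only members lower. At least 1 group held 585 of the genes, and 118 were in none. Some genes were in more than 1 group, so the groups are not independent of each other. Because 63.6% of the whole list rose and the median over all 703 genes was 1.13, a group with such a share or such a median does not stand apart from the list as a whole, and no test of a group was made. Medians of 1.60 to 1.73 were those of the phosphorelay and Hog genes, the catalase and related genes, the molybdenum genes, the genes noted as raised by farnesol, and the acetate genes. The enzymes of branched-chain amino acid breakdown, the transposon-related ORFs and the plant polysaccharide hydrolases had medians below 0.

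**Figure D2:**
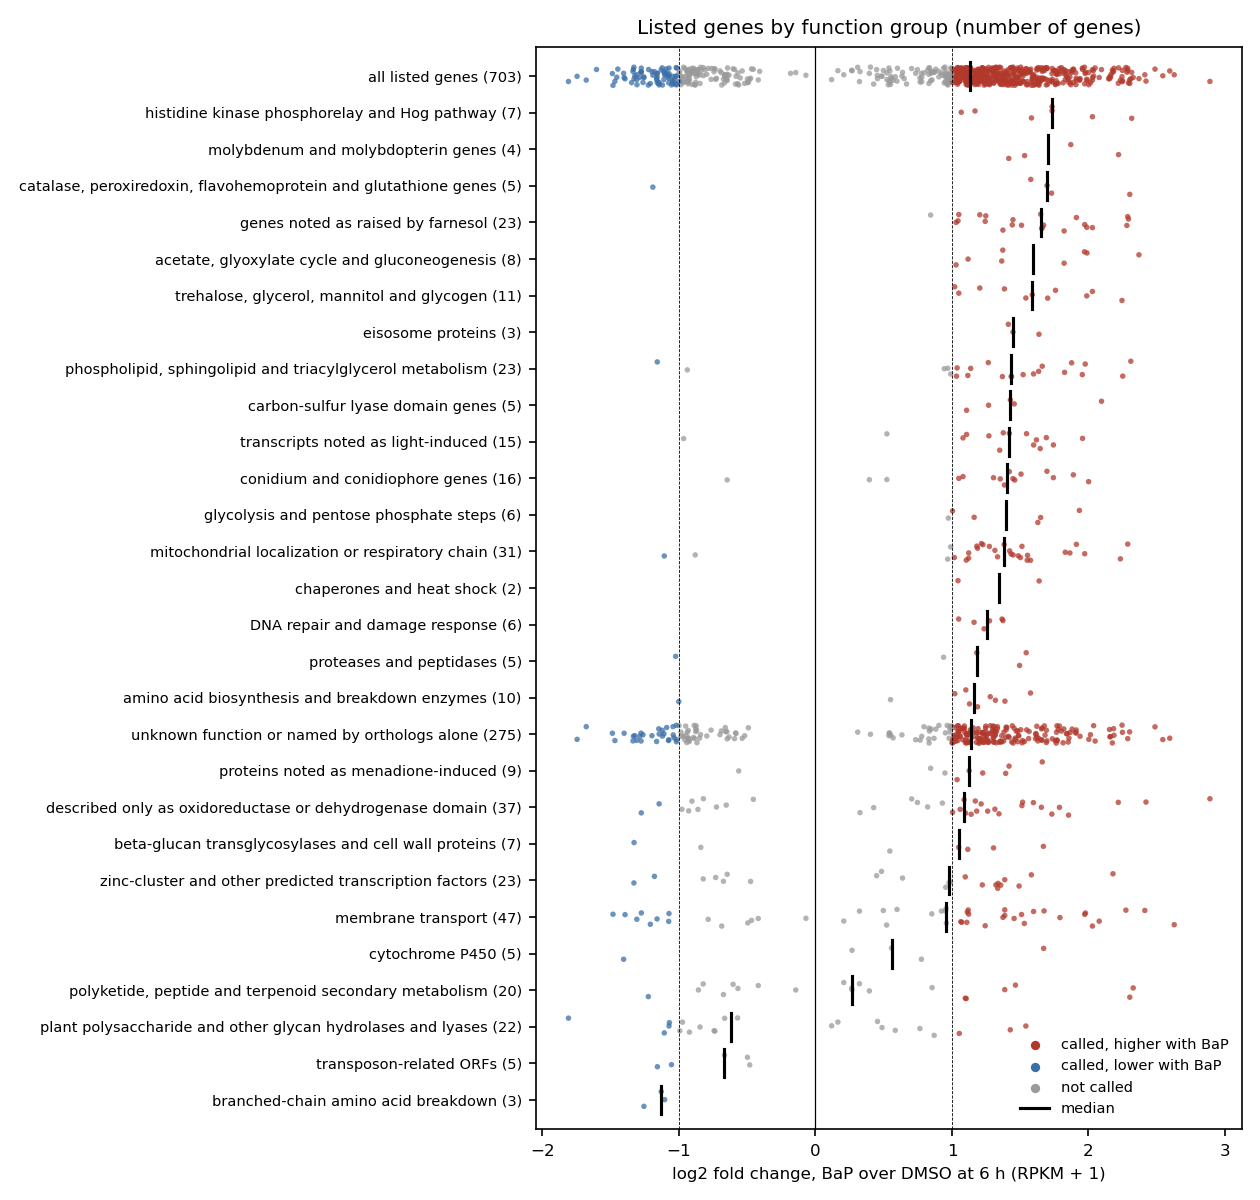
Each row is a function group with its number of listed genes, each point is a gene at its log2 fold change of BaP over DMSO at 6 h, and black bars are medians (red, rose; blue, fell; grey, not called). The phosphorelay group lies wholly to the right with a median of 1.73, and the branched-chain group wholly to the left with a median of -1.13.

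All 8 listed genes of acetate use, the glyoxylate cycle and gluconeogenesis rose, in a list where 63.6% rose. Their median log2 difference was 1.60, with a range of 1.03 to 2.37. The phosphoketolase gene *phk*, whose enzyme cleaves a sugar phosphate to yield acetyl phosphate, had 51.9, 68.4 and 43.0 RPKM with BaP, against 8.28, 12.1 and 8.62 RPKM with DMSO. The next gene on chromosome III, *ack*, encodes the acetate kinase that interconverts acetyl phosphate and acetate, and had 58.6, 78.3 and 57.4 RPKM with BaP, against 12.4, 18.3 and 16.002 RPKM with DMSO. The pair spans 576038 to 580985, and every BaP library of both genes was more than 3 times the highest control library. Their log2 differences were 2.37 ± 0.19 for *phk* and 1.99 ± 0.18 for *ack* (adjusted p = 2.40e-08 and 5.42e-08, limma).

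The enzymes particular to the glyoxylate cycle were among these genes. Isocitrate lyase, encoded by *acuD* on chromosome V, 2141430 to 2143759, had 69.0, 88.2 and 69.9 RPKM with BaP, against 25.8, 28.7 and 31.1 RPKM with DMSO. Malate synthase, encoded by *acuE* on chromosome I, 2741905 to 2743948, had 240.0, 383 and 272 RPKM with BaP, against 113, 107 and 119.5 RPKM with DMSO. The groups did not overlap in either gene, and the log2 differences were 1.37 ± 0.17 and 1.36 ± 0.18, with B17 the highest library in both. The CoA-transferase *coaT*, which detoxifies propionyl-CoA, had a larger difference of 1.82 ± 0.19, with a mean of 24.8 ± 7.70 RPKM with BaP and 6.12 ± 0.707 with DMSO. *maeB*, for a malate dehydrogenase that makes pyruvate, rose by 1.97 and *pdcA*, for pyruvate decarboxylase, rose by 1.12. *acuF*, for the gluconeogenic enzyme phosphoenolpyruvate carboxykinase, was the most abundant of the 8 at 543 ± 78.8 RPKM with BaP and 264 ± 20.2 with DMSO (SD), and its difference of 1.03 ± 0.16 was close to the limit. It dropped to 0.91 without B17 and 0.97 without D19.

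**Figure D3:**
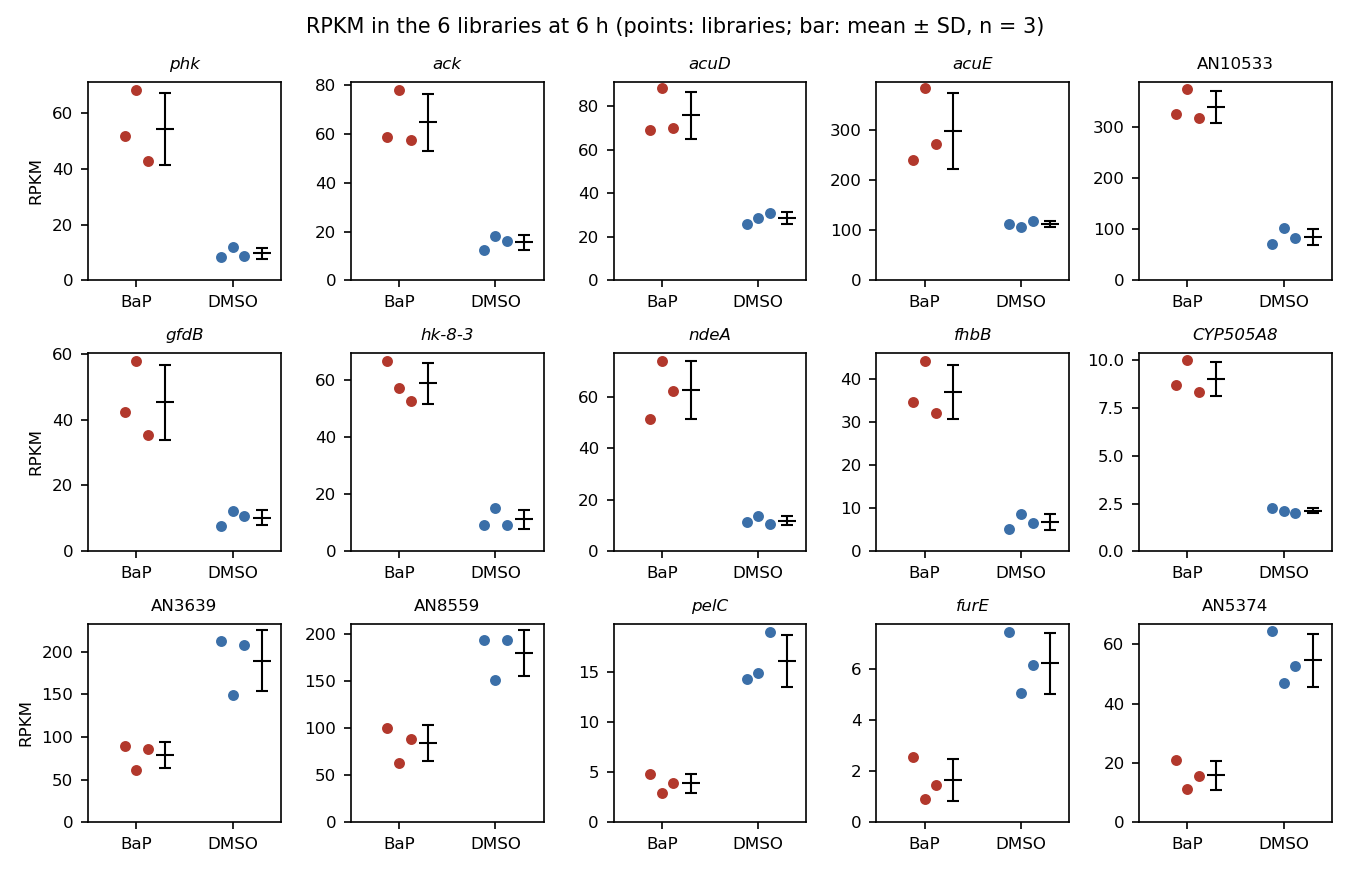
RPKM of 15 genes in each BaP library (red) and each DMSO library (blue) at 6 h, with black bars for the mean ± SD of each group (n = 3) and every axis starting at 0. The first 10 genes, *phk* to *CYP505A8*, are higher in all 3 BaP libraries, and the last 5, AN3639 to AN5374, are lower in all 3.

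Of 6 listed genes of glycolysis and the pentose phosphate pathway, 5 rose, in a list where 63.6% rose, with a median of 1.40. The phosphofructokinase gene *pfkA*, which encodes a committing step of glycolysis, had 61.4, 73.9 and 59.9 RPKM with BaP, against 14.8, 17.8 and 16.1 RPKM with DMSO, a log2 difference of 1.93 ± 0.16. Both listed phosphoglycerate mutase genes rose, *pgmA* by 1.65 and AN8720 by 1.63. The transketolase gene AN9180 rose by 1.16 and the ribulose-phosphate epimerase gene AN7588 by 1.00. AN7588 missed the fold limit without B17 (0.91), D19 (0.95) or D21 (0.98). The hexokinase gene *hxkB* was at 0.97 and was not called.

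All 11 genes of trehalose, glycerol, mannitol and glycogen metabolism rose, in a list where 63.6% rose, with a median of 1.59. These compounds are the storage sugars and compatible solutes of the fungal cell. AN10533, for the trehalose-6-phosphate synthase subunit related to yeast Tps3p, had 325, 373 and 316 RPKM with BaP, against 71.0, 102 and 82.6 RPKM with DMSO. Every BaP library held over 3 times the RPKM of the highest control library (log2 difference 1.99 ± 0.17). The other trehalose synthase genes, AN8639 and *tpsA*, rose by 1.76 and 1.38. Genes of the opposite reaction rose too: the trehalases *treB* by 1.70 and *treA* by 1.05, the last falling short without D19 (0.97).

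Glycerol and mannitol enzymes were among the largest rises of the storage group. *gfdB*, for the glycerol 3-phosphate dehydrogenase that diverts glycolytic carbon to glycerol, had 42.3, 57.8 and 35.4 RPKM with BaP, against 7.72, 12.2 and 10.8 RPKM with DMSO. The mannitol 2-dehydrogenase gene AN2815 had 12.4, 21.1 and 10.7 RPKM with BaP, against 2.03, 2.42 and 2.14 RPKM with DMSO. Both were highest in B17, and their log2 differences were 2.03 ± 0.20 and 2.25 ± 0.20. The mannose-6-phosphate isomerase gene AN1715 (1.59), the FAD-dependent glycerol 3-phosphate dehydrogenase gene AN1396 (1.20) and the glycogen debranching enzyme gene AN10060 (1.54) also rose. AN4536, related to kinases that restrain glycogen synthesis, was at 1.02 and missed the limit without D20 (0.99).

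All 7 listed phosphorelay and Hog genes rose, against 63.6% of the list, with a median of 1.73. *hk-8-3*, a putative histidine-containing phosphotransfer gene on chromosome I, 3277638 to 3281841, had 66.8, 57.3 and 52.7 RPKM with BaP, against 9.34, 15.2 and 9.25 RPKM with DMSO. *hk-8-2* had 188, 108 and 127 RPKM with BaP, against 19.6, 58.3 and 30.7 RPKM with DMSO, the widest spread of the group, yet its lowest BaP library was above its highest DMSO library. Their log2 differences were 2.32 ± 0.19 and 2.03 ± 0.29. *hk-8-1* (1.73), *hk2* (1.58) and *phkB* (1.17) also rose. Among members grouped for the Hog pathway, the kinase gene *cmkD* rose by 1.73. It had 340.3, 384 and 334 RPKM with BaP, against 90.4, 129 and 99.7 RPKM with DMSO. The Hog kinase gene *hogA* was not among the 7. *ptpA*, for a tyrosine phosphatase of that pathway, rose by 1.07.

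Eisosomes, furrows of the plasma membrane that sequester transporters and sense membrane stress, had 3 listed genes. All 3 rose, as did 63.6% of the list. *nce102* had 309.6, 408 and 300.1 RPKM with BaP, against 93.2, 116 and 114 RPKM with DMSO. *pilA*, for the core eisosome protein, averaged 743 ± 78.6 RPKM with BaP and 274 ± 46.1 with DMSO, and *surG*, related to yeast Sur7p, averaged 529.7 ± 93.0 RPKM with BaP and 197 ± 24.2 with DMSO (SD, n = 3 each). The groups did not overlap in any of the 3 genes, with log2 differences of 1.64, 1.45 and 1.41 in that order.

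Genes with products in mitochondria formed a large group in which 27 of 31 rose and 1 fell. With 0.1 RPKM added in place of 1, these were 29 and 2. In the whole list, 63.6% rose and 10.4% fell. *ndeA*, for an NADH dehydrogenase that passes electrons to ubiquinone, had 51.4, 74.1 and 62.4 RPKM with BaP, against 11.4, 13.8 and 10.7 RPKM with DMSO. The BaP libraries were all over 3 times the highest control, and the log2 difference was 2.29 ± 0.18 (adjusted p = 1.80e-08, limma). A related gene, *ndiA*, was less abundant at 8.30 ± 2.61 RPKM with BaP and 2.26 ± 0.415 with DMSO and rose by 1.49. The mitochondrial phosphate carrier gene AN10782 (1.97), AN1066 for assembly of respiratory complex IV (1.86), the ATP synthase subunit gene AN4927 (1.43), the dicarboxylate carrier gene *dicA* (1.12) and AN10634, related to yeast Yme2p of mitochondrial genome upkeep (1.91), rose as well. The member that fell was AN0394, whose orthologs promote cell death, at -1.11, and its call was lost without B17 (-0.99) or D19 (-0.997). AN5175, of the outer membrane, was at -0.88 and was not called.

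Lipid genes rose in 18 of 23 cases and fell in 1, with a median of 1.43 (21 and 2 with 0.1 RPKM added). Over the list, 63.6% rose and 10.4% fell. AN2477, related to phospholipid scramblases, which move lipids across the bilayer, had 226, 278 and 232 RPKM with BaP, against 39.9, 61.9 and 46.0 RPKM with DMSO. AN1607, a predicted lipid glycosyltransferase, had 36.6, 65.9 and 47.8 RPKM with BaP, against 10.7, 8.11 and 9.67 RPKM with DMSO. The log2 differences were 2.31 ± 0.18 and 2.25 ± 0.20, and the groups did not overlap. Phosphatidylserine decarboxylase makes phosphatidylethanolamine, and 3 genes described with that activity rose, AN11161 by 1.88, AN11159 by 1.95 and AN7989 by 1.52. AN11161 had 297, 339.9 and 271 RPKM with BaP, against 68.3, 89.1 and 88.3 RPKM with DMSO, with its neighbour AN11159 at a mean of 24.8 ± 0.341 RPKM with BaP and 5.72 ± 1.13 with DMSO. The phospholipid phosphotransferase gene AN4778 fell to 118 ± 22.5 RPKM with BaP, against 265 ± 41.3 RPKM with DMSO, a log2 difference of -1.16.

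Oxidative defence had few listed genes. *fhbB*, for a flavohemoprotein, which in fungi detoxifies nitric oxide, had 34.6, 44.1 and 32.2 RPKM with BaP, against 5.14, 8.69 and 6.47 RPKM with DMSO. The BaP libraries were all over 3 times the highest control (log2 difference 2.30 ± 0.19). The conidial catalase gene *catA* had 658, 737 and 503 RPKM with BaP, against 183, 183 and 211 RPKM with DMSO, and a further catalase gene AN8553 averaged 56.6 ± 13.2 RPKM with BaP and 18.2 ± 3.47 with DMSO. They rose by 1.70 and 1.58, and a peroxiredoxin gene, AN3973, rose by 1.73. AN2988, whose orthologs break down glutathione, fell by 1.19 on the log2 scale, with 12.3, 13.4 and 12.8 RPKM with BaP, against 30.5, 28.98 and 32.3 RPKM with DMSO. Of 9 genes noted in the descriptions as encoding menadione-induced proteins, 6 rose and none fell, in a list where 63.6% rose. Their median was 1.13, the same as that of the list. *codA*, a choline oxidase gene of that group, was at 1.04 and missed the limit without B17 (0.94) or D21 (0.98).

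Cytochrome P450 genes were few at 6 h. Of 5 listed, *CYP505A8* rose, *CYP687A1* fell, and *ivoC*, *CYP5080D1* and *CYP650B1* were not called, at 0.78, 0.56 and 0.27. All 3 are at low levels, and with 0.1 RPKM added in place of 1 they were called higher, at 1.37, 1.24 and 1.35. This made 4 of 5 higher, with a group median of 1.35 in place of 0.56. Over the list, 63.6% rose and 10.4% fell with 1 RPKM added. With 0.1 RPKM added, 527 of the 703 were called higher and 142 lower. *CYP650B1*, of austinol synthesis, had 0.192, 0.460 and 0.0571 RPKM with BaP, against 0, 0.0538 and 0 RPKM with DMSO, at most 3 reads over the controls, so its differences are set by the RPKM added. *CYP505A8* on chromosome I, 3333782 to 3337262 had 8.69, 10.0 and 8.35 RPKM with BaP, against 2.27, 2.13 and 2.01 RPKM with DMSO. Its group means differed by a ratio of 4.22, and the replicates lay close together (log2 difference 1.67 ± 0.16, adjusted p = 6.59e-08, limma). *CYP687A1* had 1.55, 1.67 and 1.89 RPKM with BaP, against 7.66, 5.28 and 5.75 RPKM with DMSO, a log2 difference of -1.41 ± 0.17. It overlaps AN11212 on the same strand by 45 bases.

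All 6 listed genes of DNA repair and the DNA damage response rose, in a list where 63.6% rose. Their median was 1.26, near that of the list. AN0604, whose orthologs act in repair of pyrimidine dimers by nucleotide excision, had 8.02, 9.26 and 8.85 RPKM with BaP, against 2.55, 3.54 and 2.99 RPKM with DMSO. AN8713, related to an endonuclease for single-stranded DNA overhangs, had 38.1, 38.9 and 37.9 RPKM with BaP, against 13.8, 15.2 and 13.7 RPKM with DMSO. The libraries of each group lay close together, and the log2 differences were 1.28 ± 0.16 and 1.37 ± 0.15. AN6114, related to DNA polymerases of repair, rose by 1.37, and AN10840, with a base-excision repair domain, rose by 1.24 but overlaps AN12012 by 1356 bases. The checkpoint gene *uvsD* was at 1.05 and *fhdA*, noted as raised by camptothecin, at 1.16. Their calls were lost without D21 for *uvsD* (0.997) and without B17 for *fhdA* (0.94), which overlaps AN2894 by 269 bases. Both listed chaperone genes rose: *hsp104*, for the disaggregase, by 1.64, and the small heat shock gene AN7892 by 1.04, or 0.99 without B17.

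Transporters were mixed. Of 47 listed, 23 rose and 8 fell, in a list where 63.6% rose and 10.4% fell. AN3952, an ATP-binding cassette (ABC) transporter gene, had 46.3, 47.6 and 34.9 RPKM with BaP, against 8.29, 11.8 and 8.20 RPKM with DMSO, a log2 difference of 2.08 ± 0.18. *atrB*, an ABC transporter gene linked to multidrug resistance, had 16.6, 20.4 and 18.5 RPKM with BaP, against 5.83, 6.94 and 6.80 RPKM with DMSO and rose by 1.37. Neither gene's libraries overlapped between the groups. AN5323 (2.27) and AN2822 (2.41) were the largest rises after AN12206. The uric acid and xanthine permease gene *uapA* was at 1.07 and the nucleoside transporter gene *pnpA* at 1.11. *uapA* was not called without B17 (0.996) or D19 (0.97), nor *pnpA* without D19 (0.997). The genes *uapA* and *maeB* overlap by 84 bases on opposite strands. The sugar transporter gene *mstB* was at 0.52, not called. After *furE*, the largest falls were AN8342 (-1.40) and AN6238 (-1.31), both described only as membrane transport proteins.

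Among predicted transcription factors, 10 of 23 rose and 2 fell, or 16 and 5 with 0.1 RPKM added. Over the list, 63.6% rose and 10.4% fell. The largest rise was in the zinc-cluster gene AN8930, with 204, 185 and 161 RPKM with BaP, against 28.2, 59.3 and 36.8 RPKM with DMSO. D20 was the highest control but lay well under the lowest BaP library (log2 difference 2.18 ± 0.22). AN8357 rose by 1.58. AN6858 fell by 1.33 on the log2 scale, with 23.2, 13.6 and 23.7 RPKM with BaP, against 52.6, 49.1 and 50.8 RPKM with DMSO, and AN8885 fell by 1.18.

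Several genes outside the naming rule were chosen after their values were seen. The plasma membrane proton pump gene *pmaA*, which drives nutrient uptake, averaged 808 ± 79.4 RPKM with BaP and 336 ± 18.8 with DMSO and rose by 1.26. *galF*, for the enzyme that makes UDP-glucose, rose by 1.24. *mexA*, whose orthologs export mRNA, rose by 1.23, and AN0314, an aspartyl-tRNA synthetase gene, had 261, 315 and 256 RPKM with BaP, against 42.1, 78.7 and 52.8 RPKM with DMSO, a log2 difference of 2.28 ± 0.20. *palF*, the arrestin of ambient pH signalling, had 7.18, 6.78 and 7.29 RPKM with BaP, against 15.4, 12.9 and 16.6 RPKM with DMSO. The groups of *palF* did not overlap, but its difference of -0.98 was under the fold limit. *dlpA*, for a dehydrin-like protein of the kind linked to desiccation and stress, was among the most abundant of the strongly raised genes, with 1958, 2133 and 1371 RPKM with BaP, against 317, 387 and 395 RPKM with DMSO and a log2 difference of 2.29 ± 0.19.

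Genes named for conidia, the asexual spores, were higher in hyphae treated with BaP. Of 16 listed conidium and conidiophore genes, 13 rose and none fell, with a median of 1.40. Of 15 transcripts noted as light-induced, 13 rose. Over the list, 63.6% rose. *cetL*, a transcript enriched in dormant conidia, had 30.9, 49.9 and 29.2 RPKM with BaP, against 7.33, 6.34 and 11.5 RPKM with DMSO, and *conJ*, a conidiation gene, had 134, 141 and 62.2 RPKM with BaP, against 39.2, 29.5 and 25.4 RPKM with DMSO. The lowest BaP library lay above the highest control in both, and the log2 differences were 2.00 ± 0.22 and 1.74 ± 0.25. The rodlet hydrophobin gene *rodA*, whose product makes the spore surface water-repellent, had 34.1, 48.5 and 31.4 RPKM with BaP, against 8.59, 30.2 and 7.21 RPKM with DMSO, so D20 lay just under the lowest BaP library and the SE was wide (1.51 ± 0.34). The spore laccase gene *yA*, which makes the green pigment, averaged 22.3 ± 2.26 RPKM with BaP and 7.46 ± 0.454 with DMSO and rose by 1.46. SpoC1-C1C, from a cluster of conidium-specific transcripts, rose by 1.35.

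The listed regulator of spore formation was lower by sign. *abaA*, which directs formation of the spore-bearing cells, had 1.08, 0.636 and 0.479 RPKM with BaP, against 1.87, 1.18 and 2.09 RPKM with DMSO, a log2 difference of -0.65 ± 0.18 that was not called. With 0.1 RPKM added in place of 1, *abaA* was called lower, at -1.15. The pigment synthetase gene *ivoA* was at 0.39 and the *conF* ortholog *cffA* at 0.52, also not called. Of 22 conidial markers looked for, with SpoC1 genes counted only where listed, 9 were listed and 8 of these were higher. The summed level of those listed was 1464, 1686 and 1184 RPKM in BaP-treated cells, against 503.0, 507 and 568 RPKM in controls. Only markers that passed the selection of the list enter this sum, so a gap between the groups was set in advance. A large part of the sum was *catA*. *brlA*, *wetA* and *wA* were not listed and have no value. From RNA of whole cultures, more spore-forming cells and more of these RNAs per cell cannot be told apart, and the part of such cells in the results for other genes was not tested. Of 8 markers of sexual development, *mutA* alone was listed, at -0.74 and not called.

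A run of 7 neighbouring genes on chromosome III held several of these spore genes. It spans 3288891 to 3304461, and all 7 rose, by 1.08 to 1.76. In order they are AN8642, AN8641, *conF*, AN8639, *cetJ*, *catA* and AN8636. AN8641, noted as light-induced, had 1098, 1087 and 953 RPKM with BaP, against 422, 396 and 483 RPKM with DMSO, and *cetJ*, enriched in dormant conidia, had 768, 989 and 585 RPKM with BaP, against 289.9, 237 and 335 RPKM with DMSO. All BaP libraries were above all controls in both, with log2 differences of 1.27 ± 0.16 and 1.42 ± 0.20. AN8639 is a trehalose synthase gene, AN8642 a predicted oxidoreductase gene (1.26) and AN8636 a predicted zinc-binding transcription factor gene (1.34). *conF*, at 1.08, was not called without B17 (0.96) or D20 (0.95).

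**Figure D4:**
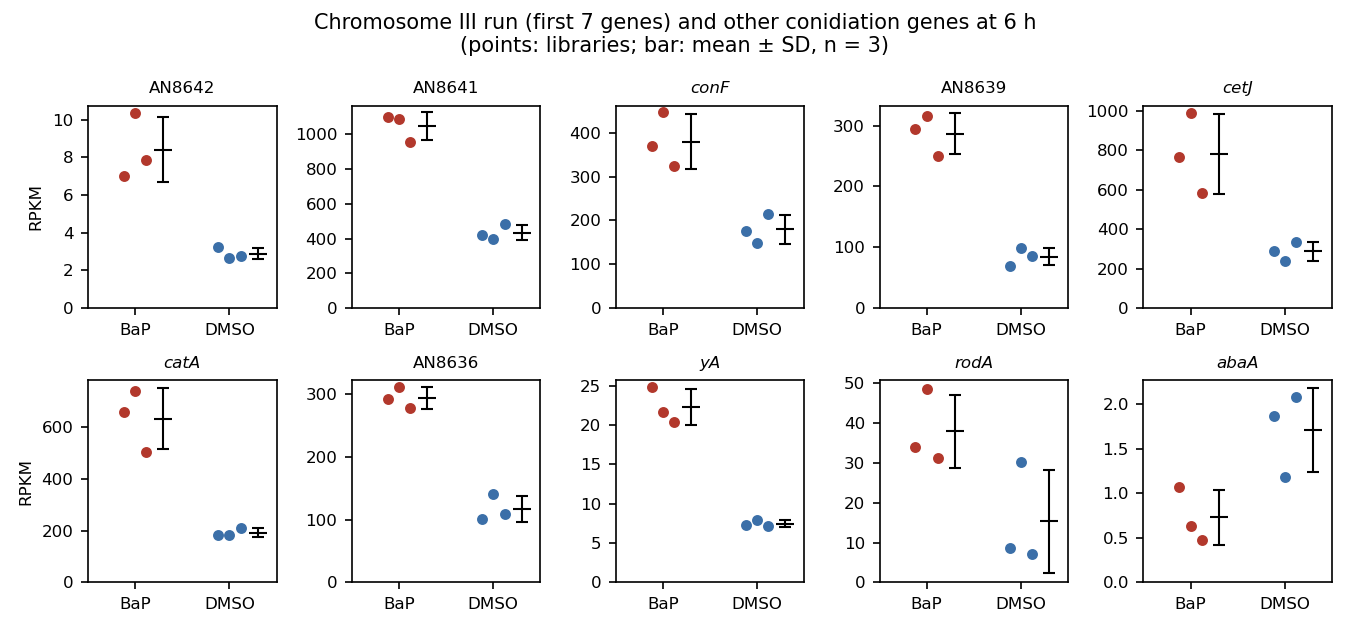
RPKM of the 7 genes of the chromosome III run and of *yA*, *rodA* and *abaA* in each BaP library (red) and each DMSO library (blue) at 6 h, with black bars for the mean ± SD (n = 3) and axes starting at 0. The BaP libraries are the higher in the first 9 genes and the lower in *abaA*.

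Enzymes that degrade plant polysaccharides went in both directions, with a median of -0.62. Of 22 listed, 3 rose and 4 fell, in a list where 63.6% rose and 10.4% fell. With 0.1 RPKM added in place of 1, 8 were called higher and 7 lower, with a median of -0.98. After *pelC*, the genes that fell were the endoglucanase gene AN8068 (-1.11), the beta-glucosidase gene *bglH* (-1.07) and the pectin-degrading rhamnogalacturonan lyase gene *rglA* (-1.07). *rglA* had 11.5, 7.06 and 10.3 RPKM with BaP, against 23.2, 18.5 and 21.5 RPKM with DMSO, with B17 lowest. Without B17, *bglH* (-0.997) and *rglA* (-0.88) were no longer called. Other pectin enzymes rose: the arabinanase gene *abnD* by 1.43 and the pectate lyase gene *plyC* by 1.05, or 0.98 without D19. Among cell wall genes, 4 of 7 rose and 1 fell, or 5 and 2 with 0.1 RPKM added, and *btgD*, for a transglucosylase of beta-1,3-glucan, fell to 3.996 ± 1.37 RPKM with BaP, against 11.4 ± 1.78 RPKM with DMSO (-1.33 on the log2 scale). AN10779, a transglycosidase gene needed for beta-1,6-glucan, rose by 1.12.

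Breakdown of branched-chain amino acids turns leucine, isoleucine and valine into acyl-CoA units. All 3 listed genes of this pathway fell, in a list where 10.4% fell. AN3639, for the E2 subunit of the alpha-keto acid dehydrogenase, had 89.2, 60.9 and 86.4 RPKM with BaP, against 212, 149 and 208 RPKM with DMSO. AN8559, for the E1 beta subunit of the same complex, had 100.3, 63.0 and 88.3 RPKM with BaP, against 193, 151 and 194 RPKM with DMSO. The groups did not overlap, B17 was the lowest library and D20 the lowest control in both, and the log2 differences were -1.26 ± 0.19 and -1.10 ± 0.19. *hlyA*, for the later steps of leucine breakdown, averaged 5.90 ± 0.754 RPKM with BaP and 14.1 ± 1.76 with DMSO and fell by 1.13. AN8559 was at -0.91 without B17. Of 10 other amino acid enzymes, 8 rose, among them the arginase gene *agaA* (1.19), the leucine synthesis gene *leu2B* (1.28), the asparaginase gene *apnA* (1.13) and the chorismate mutase gene *aroC* (1.02). *apnA* missed the limit without B17 (0.99), and *aroC* without B16 (0.99), D19 (0.93) or D21 (0.98). AN6025, of proline breakdown, was lower by 1.00 and was lost without B16 (-0.91), D19 (-0.88) or D21 (-0.95).

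Secondary metabolism genes were mixed. Of 20 listed, 6 rose, 1 fell and the median was 0.27. Over the list, 63.6% rose and 10.4% fell. Many are at low levels: with 0.1 RPKM added in place of 1, 11 were called higher and 5 lower with a median of 1.06, and the 12 that averaged at least 1 RPKM had a median of 0.98. AN9002 had 34.0, 53.2 and 29.8 RPKM with BaP, against 6.78, 5.57 and 8.05 RPKM with DMSO, and *pkfA*, for the polyketide synthase of aspernidine, was at 1.10, or 0.93 without B17. AN12002, related to a dioxygenase of verruculogen synthesis, fell by 1.22. Genes of the monodictyphenone cluster were at 0.85 for *mdpB*, -0.60 for *mdpL* and -0.67 for the regulator *mdpE*, with none called at 1 RPKM added. The xanthone prenyltransferase gene *xptA* was at -0.86. All 5 transposon-related ORFs were lower and 2 fell, AN7090 and AN2711, in a list where 10.4% fell. Their median was -0.67. With 0.1 RPKM added in place of 1, all 5 were called lower with a median of -1.20, and the 3 that averaged at least 1 RPKM had a median of -1.05. AN7090, from a Ty1-copia element, fell to 16.5 ± 2.38 RPKM with BaP, against 37.9 ± 3.39 RPKM with DMSO (-1.16 on the log2 scale), and AN2711, from a LINE element, fell by 1.05. AN2711 missed the limit without B17 (-0.94) or D19 (-0.98). Reads of repeated elements can come from other copies, so these values are uncertain.

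Genes grouped by a predicted domain or a note gave further sets that were mostly higher, in a list where 63.6% rose and 10.4% fell. All 4 molybdenum genes rose, with AN9038, of molybdopterin cofactor synthesis, at 54.1 ± 3.50 RPKM with BaP and 11.1 ± 2.91 with DMSO and a difference of 2.22, and AN8058, a predicted molybdenum oxidoreductase gene, at 1.87. All 5 genes with a carbon-sulfur lyase domain rose, led by AN3558 with 267, 415 and 319 RPKM with BaP, against 67.3, 81.4 and 80.2 RPKM with DMSO. Its BaP libraries were all over 3 times the highest control (log2 difference 2.10 ± 0.18). Of 23 genes whose descriptions say that farnesol, a quorum-sensing alcohol of fungi, raised them, 22 rose, against 63.6% of the list. Among 275 genes of unknown function or named by orthologs alone, 179 rose and 29 fell, close to the shares of the list, and of 37 known only as oxidoreductases, 21 rose and 2 fell. With 0.1 RPKM added, 62 of the 275 and 8 of the 37 were called lower.

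Some listed genes lay next to each other. By the gene order of RefSeq, in which 660 of the 703 were found among 10516 genes, there were 89 adjacent pairs, of which 72 were both higher and 7 both lower, in a list where 535 of 703 were higher. How many such pairs and directions an unordered list would give was not tested. Runs of 3 or more numbered 11 and held 38 genes, and 10 of the 11 were in 1 direction. After the run of spore genes, the longest lay on chromosome VII from 60977 to 70705 and held AN11161, AN11159, AN9038 and AN9037, which rose by 1.53 to 2.22. The first and second of these are phosphatidylserine decarboxylase genes and the others molybdenum genes. AN9037 averaged 75.3 ± 6.53 RPKM with BaP and 25.3 ± 0.542 with DMSO. On chromosome I, AN6633, AN6634 and the laccase gene *yA* rose side by side, AN6633 with 1868, 2455 and 1771 RPKM with BaP, against 752, 846 and 941 RPKM with DMSO. The run that went both ways held AN9184 (1.14), *bglR* (0.77) and AN11190 (-0.41).

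In the other runs of 3, all members were higher, as were most of the list. On chromosome V, AN5340, AN5339 and AN5338 rose by 1.45 to 2.42, and on chromosome VII, AN2470, AN2471 and AN2472 rose by 1.48 to 1.85. On chromosome III, AN8592, AN8591 and AN8590 were at 2.22, 1.75 and 0.99, the last not called, and AN8720, AN8719 and AN8718 rose by 1.06 to 1.63. On chromosome II, AN7988, AN7989 and AN7990 rose by 1.01 to 1.61, where AN7988 missed the limit without B16 (0.97) or D20 (0.93), and AN4162 (0.97), AN4161 (1.26) and AN10510 (1.46) held 2 called genes. AN10692 (0.60), AN10699 (1.71) and *CYP5080D1* (0.56) on chromosome V had 1. Of all 703 genes, 17 pairs overlapped in position, 16 of them on opposite strands, among them AN5339 with AN5338, AN2470 with AN2471, AN8720 with AN8719, AN8591 with AN8590 and AN4161 with AN10510, so neighbours may share reads.

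The 5 most abundant listed genes all rose. AN7992 had 3267, 3867 and 3066 RPKM with BaP, against 1500.0, 1296 and 1625 RPKM with DMSO, and AN5480, a putative RNA-binding protein noted as menadione-induced, had 3039.6, 3643 and 3189.7 RPKM with BaP, against 1105, 1349 and 1305 RPKM with DMSO. All BaP libraries of both genes lay above all control libraries. *mnpA*, for a mannoprotein of the hyphal wall, and AN3627 were also among them. *mnpA* averaged 3052 ± 277 RPKM with BaP and 1245 ± 224 with DMSO. AN3627 averaged 3028 ± 201 RPKM with BaP and 1103 ± 57.7 with DMSO. The log2 differences were 1.20, 1.39, 1.30 and 1.46 in the order named. AN0468 was at 1.04, and 0.97 without B17 or without D19.

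At the other end, 49 genes averaged under 1 RPKM, and 1 of these was called, AN8329 (1.13, and 0.99 without B17), named after its values were seen. AN3247 and AN2507 were listed at 0 RPKM in all 3 BaP libraries, with 0.0337, 0.0592 and 0.0565 RPKM for AN3247 and 0.139, 0.163 and 0.104 RPKM for AN2507 in controls. Genes with at most 3 reads over a whole group were AN12273, AN3247 and AN2507 in BaP-treated cells (3 genes) and AN2118, *CYP650B1*, *glaB* and AN12140 in controls (4 genes), and no ratio of group means is given for them. The log2 difference of *CYP650B1* given above is a value with the added RPKM and no estimate of its fold. The groups overlapped in 5 genes, AN5846, AN12175, AN6509, AN6406 and the peptide synthetase gene *inpB*. AN6406, of unknown function, had 3.63, 1.35 and 1.18 RPKM with BaP, against 6.61, 3.32 and 10.3 RPKM with DMSO, so the highest BaP library exceeded the lowest control. Its call (-1.32) was lost without D21, at -0.998.

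Many of these genes were listed again at later times, each table having its own BaP and DMSO libraries. Of the 703, 374 (53.2%) were among the 1503 genes listed at 24 h (24.9% of that list), where 74.1% of genes were called. All 374 kept their direction, 300 higher and 74 lower, and 286 were called at both times. At 48 h, 241 (34.3%) were among 1529 genes (15.8% of that list), where 83.9% were called. There 236 kept their direction and 5 did not. Listed at all 3 times were 198 genes, 167 higher and 31 lower throughout. Listed at 6 h alone were 286, or 40.7%, made up of 201 higher (37.6% of all higher) and 85 lower (50.6% of all lower).

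How many members of each function group were listed again is given as counts, with no test. All 6 DNA repair genes were listed at 24 h and 4 at 48 h, all higher. Of the mitochondrial genes, 24 of 31 were listed at 24 h and 11 at 48 h. The branched-chain genes were all listed at 24 h and 2 at 48 h, with AN3639 at -1.71 and -1.88 and AN8559 at -1.61 and -2.27 (log2 differences at 24 h and 48 h). Of the 16 spore genes, 2 were listed at 24 h and 4 at 48 h. *cetJ* was among the last, with 657 ± 204 RPKM with BaP and 108 ± 112 with DMSO by 48 h, a log2 difference of 3.04. Among single genes, *phk* was at 2.76 at 24 h, *ndeA* at 2.35 and 2.49, *gfdB* at 2.53 and 3.14, AN3558 at 2.73 and 3.19 and AN6633 at 2.95 and 2.67 at 24 h and 48 h. AN11034, which fell at 6 h, was at -2.75 and -2.60.

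**Figure D5:**
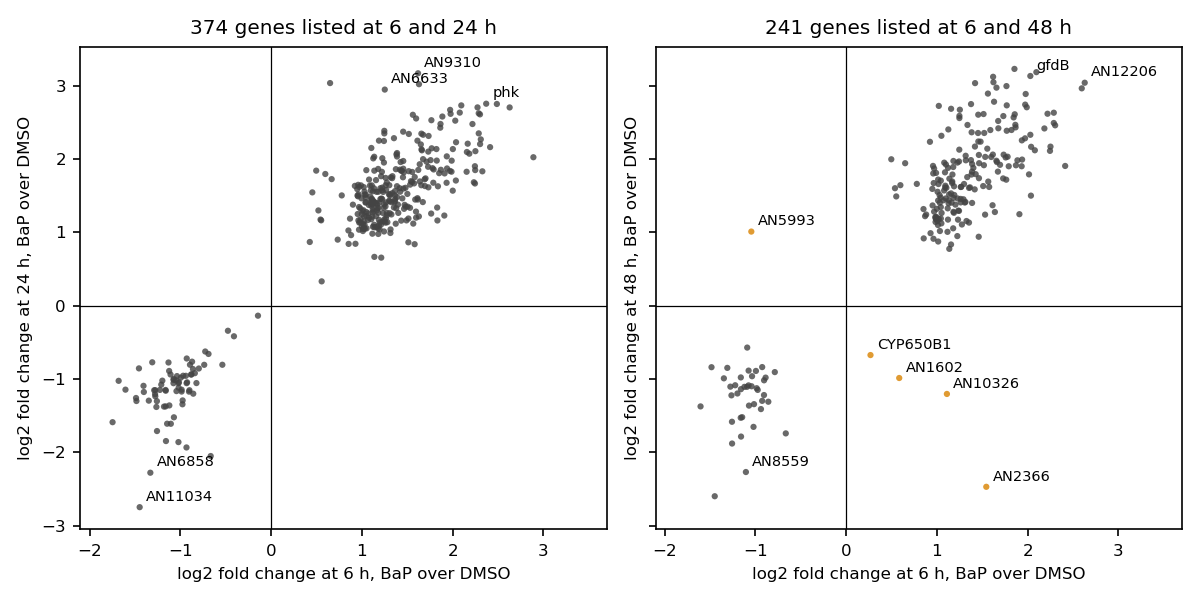
Log2 fold change of BaP over DMSO at 6 h on the horizontal axis against that at 24 h (left, 374 genes) and 48 h (right, 241 genes), each point being a gene listed at both times, with orange points for opposite directions. No point at 24 h and 5 points at 48 h are orange.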

How the data were processed

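Poly(A) RNA of hyphae was made into strand-specific libraries by the authors, and their processing notes name FastQC, Subread, featureCounts, Cufflinks and limma without roles. The aligner, genome build and strand setting are not given in the sources used here. The deposited 6 h table holds 703 genes the authors had selected, with 1 value per library and their gene descriptions. The deposited values are taken as RPKM, made by the authors from reads mapped and counted per gene; the table does not name the unit, which was read from the values: within a library, the lowest steps scale with gene length, and whole reads could be recovered for 668 genes. Effective library sizes, the read totals behind the RPKM values, were inferred from the same steps. They need not equal sequencing depth, and the study reports more reads per sample. The authors' average expression, log fold change, p and adjusted p columns were not used. No per-sample column belonged to another series.

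Differences were fitted with limma 3.58.1 (R 4.3.3) on log2(RPKM + 1), BaP against DMSO at 6 h, with Benjamini-Hochberg adjustment over the 703 listed genes, and tested on simulated data. The 24 h and 48 h tables were fitted the same way, each alone. Alternatives were pseudocounts, filters on low values, fold and p limits, library weights, scaling, adjustment over the RefSeq gene number, other fits, and leaving out each library. Tables and figures used Python 3.11.15, pandas 2.3.3 and matplotlib 3.10.9. Gene order came from RefSeq (ASM1142v1), and coordinates are those of the deposited table, whose build is not given.

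The genes, groups and tests were chosen with earlier results of these data known, and the words that define the groups were refined after the descriptions were read. Genes named are the 10 largest rises and 10 largest falls, every member of groups of up to 6 genes and the 3 largest rises and falls of larger ones, genes with a symbol in a group, genes the study discusses, the 5 at the highest level, those whose groups overlap, and members of runs of 3 or more neighbours; others are marked. Not every gene the rule allows is named.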

Additional observations from a re-analysis of the deposited data

Results flagged for a closer look

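At 48 h, 5 genes had the opposite direction to that at 6 h, with no overlap of the BaP and DMSO libraries at either time. The difference between the times was not tested, and the values come from separate tables. AN2366, a putative trypsin-like protease gene, averaged 319.7 ± 43.9 RPKM with BaP and 108 ± 5.86 with DMSO after 6 h of exposure, a log2 difference of 1.54, and 8.81 ± 4.06 RPKM with BaP and 52.9 ± 18.8 with DMSO after 48 h, a log2 difference of -2.47. AN10326, of unknown function, averaged 2518 ± 286 RPKM with BaP and 1163 ± 75.8 with DMSO after 6 h (1.11) and 19.7 ± 1.98 RPKM with BaP and 46.5 ± 1.96 with DMSO after 48 h (-1.20). AN5993, with a calcium-binding domain, was at -1.04 at 6 h and 1.01 at 48 h, and its 6 h call was lost without B17 (-0.90) or D20 (-0.95). The endoglucanase gene AN1602 was at 0.58 and -0.99, and the cytochrome P450 gene *CYP650B1* at 0.27 and -0.67, with neither called at either time. The 6 h value of *CYP650B1*, which had at most 3 reads over the controls, is set by the 1 RPKM added and is no estimate of its fold. At 6 h its lowest BaP library and highest DMSO library were nearly equal, so its lack of overlap then carries no weight. Groups of 3 libraries are too small for a check of single outlying libraries.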

How the results depend on the processing

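The genes were selected on these libraries before deposit, and every BaP library was the smaller in effective size. With 3 libraries against 3, no exact permutation p under 0.1 is possible for a single gene. No paired analysis was possible because the column names carry no replicate numbers. Against 520 calls (447 higher, 73 lower), a pseudocount of 0.1 gave 142 lower among 669 calls, a fold limit of 0.5 gave 156 lower, and a fold limit of 2 gave 45 calls, all 45 higher and 0 lower. A fit of all 18 libraries, which can hold only the 198 genes listed at all 3 times, called 157, with 134 higher and 23 lower. The limma voom fit of recovered reads, chosen after seeing the data and run on 668 genes, called 155 lower among 656. Leaving out 1 library gave 448 to 552 calls, 399 to 464 higher and 49 to 92 lower, the lowest of each without B17. The other alternatives moved each count by less than 1.5 times. Under the pseudocount of 0.1, the filter at 1 RPKM and the fits that left out 1 library, no group median or named gene changed sign, and 25 groups kept a median above 0, though their order changed. For 214 named genes, 1596 alternative values stayed on the same side of the limits, 62 moved past them and 41 fell short. Values under 1 RPKM, which 49 genes averaged, rest on few reads.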
